A study of Mus musculus with 139 samples.

Results

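The 8 mitochondrial tRNAs that are read from the light-strand transcript of the mouse mitochondrial genome (mt-Tq, mt-Ta, mt-Tn, mt-Tc, mt-Ty, mt-Ts1, mt-Te and mt-Tp, listed in the count table as mt.Tq, mt.Ta, mt.Tn, mt.Tc, mt.Ty, mt.Ts1, mt.Te and mt.Tp) were compared across tissues. They are defined by the strand of their gene, and make up 8 of the 22 mitochondrial tRNA genes and 8 of the 6114 small RNA genes counted. Earlier results of these data were known when this list was chosen. All mice were wild-type C57BL/6J adults 3 months old, with no allele or agent named in the labels. The 134 libraries came from 14 animals and 11 labelled tissues (brain, heart, muscle, liver, kidney, lung, pancreas, intestine, spleen, bone marrow and, in 3 libraries, testis). Per the column names, animals 1 to 10 were female and animals 11 to 14 male. The sample descriptions name 3 library pools. Pool N467 held 47 libraries of liver, kidney, lung, pancreas and spleen from animals 1 to 10, pool N469 held 48 libraries of brain, heart, muscle, intestine and bone marrow from the same animals, and pool N541 held 36 libraries of the same 10 tissues from animals 11 to 14. Tissues were therefore compared only inside a pool, and sex, animal set and pool N541 cannot be told apart.

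Mitochondrial DNA is transcribed from both strands into long transcripts in which tRNAs lie between the protein and ribosomal RNA genes, and the tRNAs are cut out by RNase P at the 5′ end and by ELAC2, the mitochondrial RNase Z, at the 3′ end. The light-strand transcript carries a single protein gene, mt-Nd6, beside its tRNAs, and the rest of the tRNAs, both ribosomal RNAs and the other protein genes come from the heavy-strand transcript. After cutting, a CCA end is added that the gene does not encode, bases are modified, and the tRNA is charged with its amino acid for translation of the respiratory chain subunits. Organs rich in mitochondria, with heart as the best known case, hold much mitochondrial RNA.

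The gene sequences are shown because the members share a strand and a size but not their letters, and because the anticodon is what tells each apart. They are the GENCODE M21 transcripts of GRCm38, which the submitters' processing notes name as the build, written 5′ to 3′ as the tRNA is read, with T for U and the anticodon in capitals. They stand in order from the start of light-strand transcription.
mt-Tp: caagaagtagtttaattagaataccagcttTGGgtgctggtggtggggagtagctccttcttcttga
mt-Te: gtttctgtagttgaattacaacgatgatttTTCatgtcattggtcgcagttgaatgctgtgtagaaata
mt-Ts1: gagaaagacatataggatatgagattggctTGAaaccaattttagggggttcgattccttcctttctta
mt-Ty: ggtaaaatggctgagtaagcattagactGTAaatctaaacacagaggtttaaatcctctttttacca
mt-Tc: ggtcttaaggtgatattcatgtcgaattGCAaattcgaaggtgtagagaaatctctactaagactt
mt-Tn: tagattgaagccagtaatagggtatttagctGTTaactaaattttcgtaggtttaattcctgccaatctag
mt-Ta: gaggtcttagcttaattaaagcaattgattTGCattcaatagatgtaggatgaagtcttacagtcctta
mt-Tq: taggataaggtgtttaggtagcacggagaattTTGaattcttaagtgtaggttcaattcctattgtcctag

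All 8 lie on the minus strand of chromosome M. The genes are mt-Tp (proline, anticodon TGG) at chrM:15356-15422, mt-Te (glutamate, anticodon TTC) at chrM:14071-14139, mt-Ts1 (serine, anticodon TGA) at chrM:6870-6938, mt-Ty (tyrosine, anticodon GTA) at chrM:5260-5326, mt-Tc (cysteine, anticodon GCA) at chrM:5192-5257, mt-Tn (asparagine, anticodon GTT) at chrM:5089-5159, mt-Ta (alanine, anticodon TGC) at chrM:5018-5086 and mt-Tq (glutamine, anticodon TTG) at chrM:3772-3842. mt-Ts1 reads the UCN codons of serine. mt-Ta, mt-Tn, mt-Tc and mt-Ty form 1 cluster between mt-Tw and mt-Co1, in which mt-Tc and mt-Ty are 2 bases apart, mt-Ta and mt-Tn are 2 bases apart, and 32 bases separate mt-Tn from mt-Tc, the stretch known for the origin of light-strand replication. mt-Te lies just before mt-Nd6 on the light-strand transcript, and mt-Tp abuts mt-Tt. mt-Tq overlaps mt-Ti by 3 bases and mt-Ts1 overlaps mt-Co1 by 3 bases, both on the opposite strand, and whether the authors' counting used strand is not given in the sources used here. Lengths ran from 66 to 71 bases. The light-strand members held a median of 22.96% G and 29.3% A, against 15.7% G and 37.3% A in the 14 heavy-strand tRNAs. No pair of members shared a run of 12 bases. A transcript of Cep295 shares a run of 20 bases with mt-Ta and with mt-Ty. Nuclear copies were not searched for here.

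The lowest library held 10255 counts, the median library 6327550 and the highest 34095704, and 8 were under 100000. Mitochondrial tRNA took 2.99% of all counts and the 8 members 0.469%, and 5 libraries held under 1000 mitochondrial tRNA counts, the lowest 27. Of the marker genes fixed for each organ, those of brain, heart, muscle, liver, pancreas, intestine, lung and spleen were highest in their own tissue, whereas Mir30a of the kidney list was highest in brain and Mir142 of the bone marrow list in spleen. The 3 libraries labelled testis went against their label. Of the 6 testis microRNAs, Mir741, Mir743, Mir880, Mir463 and Mir471 had no count in any of them and Mir871 none in 1, and the list summed to at most 0.138 CPM there. Mir205, an epithelial microRNA singled out after its values were seen, was at 5439 to 6869.9 CPM in these 3 and at most 47.8 in any other library. They are called libraries labelled testis throughout and enter no main fit. The testis list was highest in heart, at 3.82 to 15.04 CPM, and 978 of its 1086 counts over all libraries were Mir871. The 13 heart libraries held their own markers, with Mir208a at 543 to 1259 CPM and Mir499 at 282 to 1241. The library labelled Pancreas 11 had an adapter index (33) set apart from those of Pancreas 12 and Pancreas 13 (14 and 15). The descriptions also give each library's adapter index, from 1 to 48. In pools N467 and N469 animals 1 to 4 had indices 1 to 24 and animals 6 to 10 indices 25 to 48, and animal 5 had an index up to 20 except in its lung and bone marrow libraries, which both had index 44. In pool N541 each tissue had its own run of indices, apart from the library labelled Pancreas 11, so index and tissue cannot be told apart there. Counts are relative within a library, and in these bulk tissues fewer cells of a type and less RNA per cell cannot be told apart.

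The members were very unequal in level. Over all libraries they held 15.7% of mitochondrial tRNA counts. mt-Ty, the tyrosine tRNA, which carries queuosine at its wobble position, held 2514703 counts (49.8% of the members' counts) and ranked 5 of the 22 per base of length, at 37533 counts per base. mt-Tq, the glutamine tRNA, followed with 899217 counts (17.8% of the members' counts) and 12665 counts per base. mt-Te, the glutamate tRNA, held 522569 counts (10.3% of the members' counts), mt-Tc, the cysteine tRNA, 438102 counts (8.67% of the members' counts), mt-Ta, the alanine tRNA, 283208 counts (5.61% of the members' counts), and mt-Tp, the proline tRNA, 263199 counts (5.21% of the members' counts). mt-Tn, the asparagine tRNA, had 1419 counts per base. mt-Ts1 was lowest with 29343 counts (0.581% of the members' counts) and 425 counts per base, rank 21 of 22. These sums weight libraries by their counts. Taking each library alike, mt-Ty had a mean of 6.84% and a median of 3.10% of mitochondrial tRNA counts and mt-Tq 3.51% and 2.90%, and mt-Ty was the most counted member in 57 of 134 libraries. The lead was not general. Split by adapter index, a count added after seeing the data, mt-Ty led in 6 of 23 and 4 of 24 libraries with indices 1 to 24 in pools N467 and N469, where mt-Te led in 7 and 11 and mt-Tq in 7 and 5. With indices 25 to 48 mt-Ty led in 12 and 14 of 24. The order of summed levels did not follow the order on the transcript: mt-Tp, the first gene after the start of light-strand transcription, had 3928 counts per base, below mt-Tq, the last, and below mt-Ty of the cluster. For comparison, the most counted heavy-strand tRNA, mt-Ts2, had 138752 counts per base.

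The share of mitochondrial tRNA counts that fell on the light-strand members was first compared by tissue, as a description with no test. In pool N467 it was 23.5 ± 18.7% (SD) in liver (n = 9), 17.02 ± 11.9% in kidney (n = 10), 13 ± 5.86% in lung (n = 9), 9.48 ± 3.70% in pancreas (n = 9) and 9.20 ± 4.09% in spleen (n = 10). In pool N469 it was 14.2 ± 12.3% in brain (n = 10), 12.3 ± 10.3% in muscle (n = 10), 12.02 ± 5.98% in bone marrow (n = 9), 11.98 ± 5.96% in intestine (n = 10) and 11.5 ± 7.0% in heart (n = 9). Every tissue's range overlapped that of the next tissue in both orders. The place of pancreas rests on the heavy-strand mt-Ts2, which held 55.4% of the class there against 24.6% in the other tissues of the pool: with mt-Ts2 left out of the class, the pancreas mean came to 22.7%, beside 31.2% in liver, 22.6% in kidney, 16.4% in lung and 11.3% in spleen. In pool N541, the single libraries of liver gave 39.5, 34.03, 32 and 38.6%, those of kidney 25.8, 25.05, 18.9 and 35.9%, those of heart 24.1, 25.7, 21.5 and 31.2%, and those of muscle 26.5, 22.4, 13.6 and 20.5%. Lung gave 21.4, 19.1, 20.5 and 21.3%, spleen 20.96, 16.9, 19.1 and 17.5%, brain 4.35, 24.7, 17.3 and 26.6% and pancreas 6.06, 23.5 and 18.5%. Intestine gave 10.6 and 7.51% and bone marrow 7.55, 1.25 and 8.43%. Liver had the highest mean share in both pools that hold it, and neighbours in the order overlapped in pool N541 as well. The low brain value belonged to Brain 11 with 46 mitochondrial tRNA counts and the low pancreas value to the library labelled Pancreas 11 with 33.

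**Figure D1:**
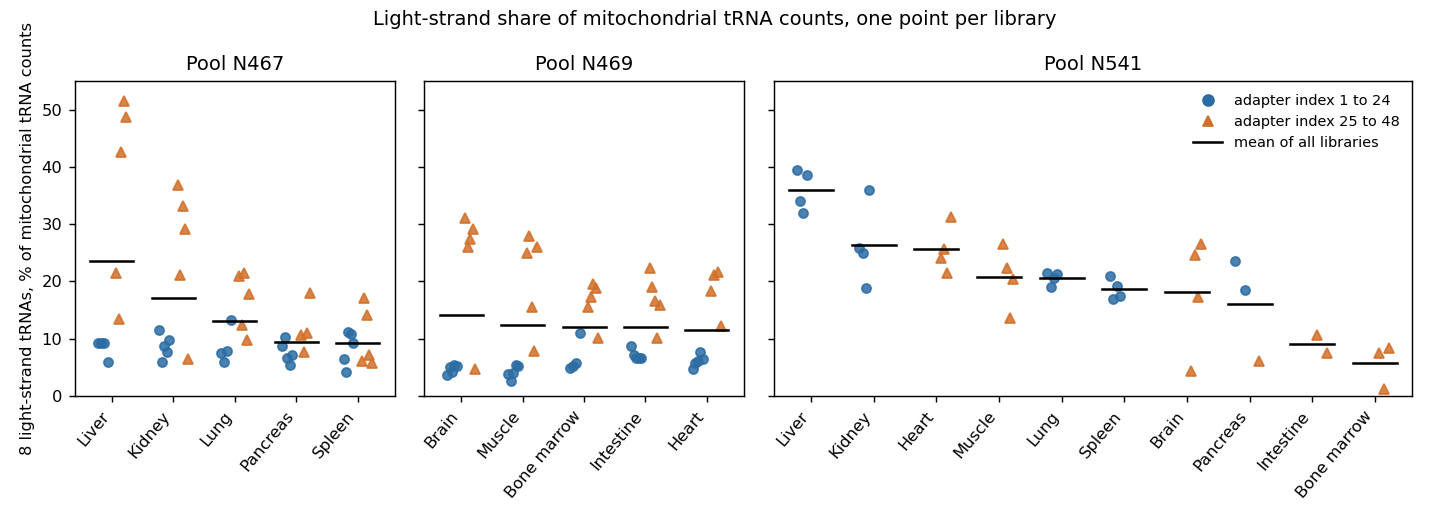
Share of mitochondrial tRNA counts on the 8 light-strand tRNAs (y axis, percent), one point per library, by tissue (x axis) in each pool; circles are adapter indices 1 to 24, triangles 25 to 48, and bars the mean of all libraries. In pool N469 the triangles lie above the circles in heart, muscle and intestine, while liver has the highest mean in pools N467 and N541.

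Inside pools N467 and N469 the share also differed between libraries of 1 tissue by adapter index. In brain, animals 1 to 5 (indices 1 to 24) gave 3.64, 5.01, 4.25, 5.34 and 5.14% and animals 6 to 10 (indices 25 to 48) gave 31.1, 26.02, 27.4, 29.2 and 4.75%. All but Brain 10 of the second set were above the first. In heart the first set gave 4.71, 5.68, 6.10, 7.74 and 6.38% and the second 18.2, 21.1, 21.7 and 12.2%, with no overlap. In muscle the sets gave 3.90, 2.65, 4.08, 5.39 and 5.19% and 24.99, 27.9, 15.5, 7.92 and 25.98%, and in intestine 8.72, 7.08, 6.63, 6.67 and 6.55% and 22.4, 19.01, 16.7, 10.2 and 15.9%, again with no overlap. Bone marrow gave 4.88, 5.26, 5.71 and 10.99% and 15.5, 17.3, 19.6, 18.9 and 10.1%, where the second set opens with Bone marrow 5 and the highest of the first set was above the lowest of the second. In liver the sets gave 9.32, 9.24, 9.28 and 5.91% and 21.5, 13.5, 42.6, 51.4 and 48.7%, with no overlap, and in kidney 11.5, 5.99, 8.76, 7.67 and 9.75% and 36.8, 21.1, 33.1, 29.1 and 6.47%, where Kidney 10 fell among the first set. Means were 8.63 ± 3.15% and 16.5 ± 5.19% in lung, 7.64 ± 1.92% and 11.8 ± 4.36% in pancreas and 8.36 ± 2.98% and 10.03 ± 5.20% in spleen, with overlapping ranges in each. Animal set and index range are the same split except in animal 5, whose lung and bone marrow libraries carried index 44. Lung 5 had a share of 20.9% and Bone marrow 5 of 15.5%, both above every library of their tissue with an index of 1 to 24, while the other 8 libraries of animal 5 carried indices of 1 to 24 and their shares ran from 5.14% to 9.75%. In indices 1 to 24 alone the tissue means of pool N467 lay between 7.64% (pancreas) and 8.74% (kidney), so the higher means of liver and kidney in that pool came from libraries with indices 25 to 48.

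Depth and class level were not the same in the sets. In pool N469 the median total was 6972376 counts with indices 1 to 24 and 4456162 with indices 25 to 48, and mitochondrial tRNA took a median of 3.33% and 4.44% of counts. In pool N467 the median totals were 9582138 and 8497906 and the class shares 1.97% and 2.80%. The part of depth in the split was not tested.

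mt-Ty was among the members that differed between the index ranges. Its mean share of mitochondrial tRNA counts was 1.34% and 26.3% in liver with the lower and the higher indices, 3.15% and 19.6% in kidney, 0.982% and 14.1% in brain and 0.578% and 9.79% in heart. With mt-Ty left out of both the sum and the class, the share of the other 7 members in pool N469 was 5.02 ± 1.72% with indices 1 to 24 (n = 24) and 11.4 ± 3.12% with indices 25 to 48 (n = 24). In pool N467 it was 6.67 ± 1.86% (n = 23) and 10.5 ± 4.82% (n = 24). By tissue, kidney of pool N467 came down to 6.49 ± 1.22% and liver to 10.5 ± 4.62%. In pool N541 liver was still the highest at 17.6 ± 1.58%, with lung at 14.99 ± 0.676% and spleen at 14.04 ± 0.929%. Pancreas libraries of pool N467 with indices 25 to 48 had mt-Ta as the leading member: mt-Ta took 2.40 to 8.96% of mitochondrial tRNA counts there and mt-Ty 0.193 to 1.68%.

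**Figure D2:**
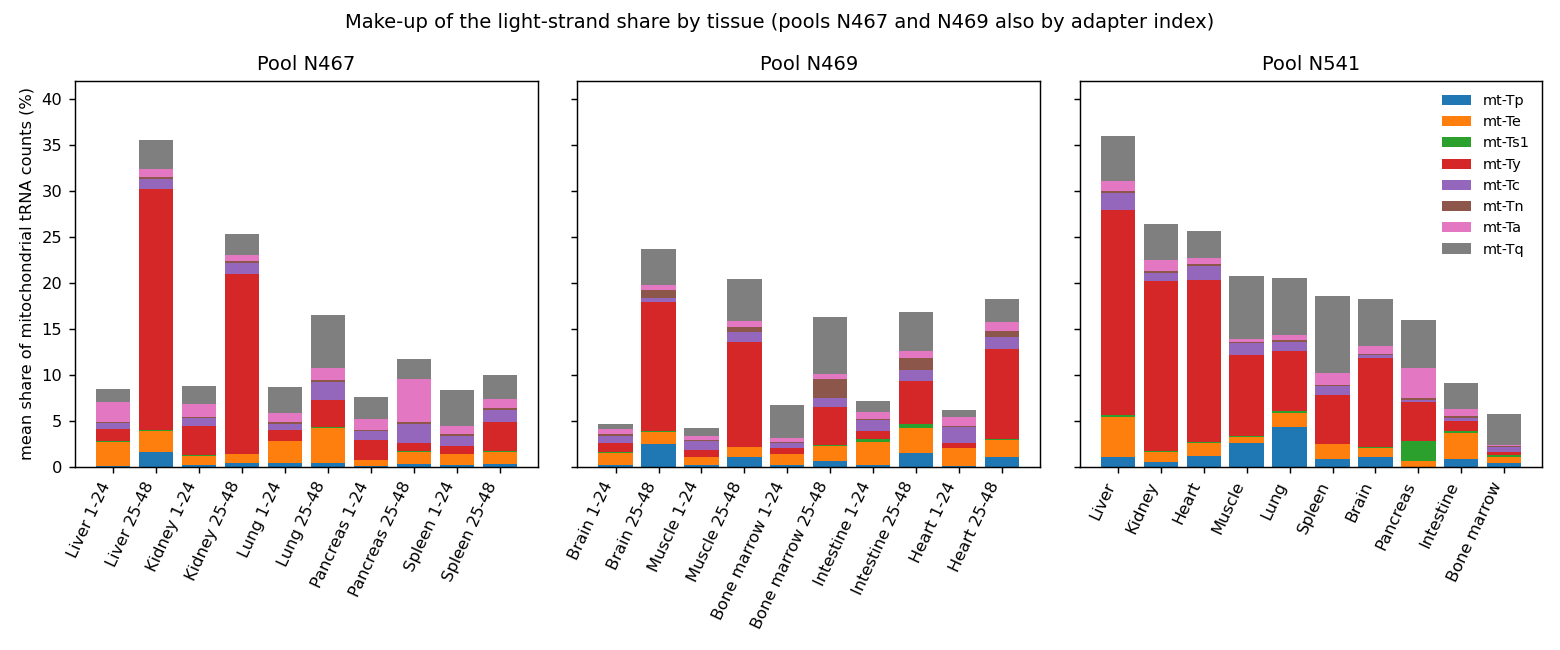
Mean share of mitochondrial tRNA counts (y axis, percent) by member, stacked for each tissue, split by adapter index range in pools N467 and N469. mt-Ty is the widest band in liver and kidney with indices 25 to 48 and in liver, kidney and heart of pool N541, and mt-Ta in pancreas with indices 25 to 48.

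mt-Ty and mt-Tp took a larger share of the class in liver, and mt-Te and mt-Ts1 in both lung and intestine, when libraries of both index ranges were permuted together. When the tissues of 1 mouse were paired (exact sign-flip test), the number of members called higher came to 0 for 2 in liver, 1 for 3 in lung and 1 for 2 in intestine. Each member's share was tested, tissue against the other tissues of its pool, in pools N467 and N469 (two-sided permutation test of libraries, 100000 draws, Benjamini-Hochberg adjusted over 220 tests of all 22 mitochondrial tRNAs). Of 40 member tests in pool N467, 6 were called higher and 1 lower, and of 40 in pool N469, 6 higher and 3 lower. Over all 22 tRNAs 27.3% and 23.6% of the tests were called, in either direction. mt-Ty and mt-Tp took a larger share in liver: mt-Ty had 15.2 ± 17.5% against 4.42% in the other tissues (permutation adjusted p = 0.0380) and mt-Tp 0.920 ± 1.20% against 0.275% (p = 0.0325), while mt-Tn took less, 0.0990 ± 0.0581% against 0.183% (p = 0.00869). The larger mt-Ty share in liver was not seen with indices 1 to 24 alone. Its liver mean there, given above, was below the 1.80% of all pool N467 libraries with those indices. mt-Tp was high in Livers 8, 9 and 10 alone, all with indices 25 to 48, and its levels are given below. In liver 9.09% of the 22 tRNAs were called higher and 9.09% lower. In lung mt-Te had 3.15 ± 1.28% against 1.39% (p = 0.00204), mt-Tq 4.40 ± 3.27% against 2.51% (p = 0.0499) and mt-Ts1 0.113 ± 0.114% against 0.0513% (p = 0.0428), with 36.4% of the 22 called higher. In pancreas mt-Ta had 2.74 ± 2.61% against 1.17% (p = 0.0129), with 13.6% called higher.

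In pool N469 the glutamate and UCN serine tRNAs stood out in intestine. mt-Ts1 had 0.403 ± 0.296% against 0.0722% in the other tissues (permutation adjusted p = 3.14e-04, from the smallest raw p that the draws can give, 1e-05) and mt-Te 2.59 ± 1.10% against 1.37% (p = 0.00110), with 22.7% of the 22 called higher. In heart mt-Ta had 0.937 ± 0.0782% against 0.590% (p = 9.78e-04) and mt-Tc 1.59 ± 0.707% against 0.906% (p = 0.00248), with 18.2% called higher. In bone marrow mt-Tq had 5.05 ± 2.54% against 2.32% (p = 0.0110), mt-Tn 1.20 ± 1.11% against 0.484% (p = 0.0301) and mt-Ta 0.477 ± 0.0974% against 0.696% (p = 0.0451), with 18.2% called higher and 22.7% lower. In Bone marrow 1 to 4 mt-Tn held 19, 2, 24 and 79 of 16851, 5397, 23539 and 54247 mitochondrial tRNA counts. Its mean share over all pool N469 libraries with indices 1 to 24 was 0.117%. In Bone marrow 5 to 9, with indices 25 to 48, it held 753 of 48207, 706 of 30332, 1605 of 65261, 1033 of 67412 and 1729 of 67548. mt-Tc took less in brain, 0.613 ± 0.253% against 1.15% (p = 0.0177; 9.09% called lower), and mt-Te less in muscle, 0.968 ± 0.199% against 1.79% (p = 0.0177; 9.09% called lower). With libraries permuted only inside each of the 2 index ranges, these 16 member calls were also made. There were 4 more: mt-Te lower in pancreas, mt-Tp higher in brain, mt-Tq lower in heart and mt-Tn lower in muscle. The difference tested was still the one over both ranges, so this does not show whether a call holds within each range. Under the exact sign-flip test of differences within animals, which pairs tissues of 1 mouse, the higher calls also came to 0 in pancreas of pool N467 and to 1 in bone marrow and 1 in heart of pool N469, while the lower calls came to 3 in kidney, 4 in heart and 3 in muscle.

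The level of each tRNA per library was compared next, by edgeR's quasi-likelihood test of each tissue against the mean of the other tissues of its pool. A gene was called at an adjusted p below 0.05 over all genes tested and a log2 fold change of at least 1 in size, and 906, 990 and 932 genes were tested in pools N467, N469 and N541. All 8 members passed the filter on low counts in each pool. Levels are raw CPM, the gene's count scaled to the library total, log2 fold changes are given with their SE, and medians over the members stand beside those of the 14 heavy-strand tRNAs and of all genes tested. In pool N541 no pancreas library held an mt-Tp count, so the fitted mt-Tp changes there have no usable error and its values come from a fit without pancreas, chosen after seeing the data.

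Heart had all 8 members higher in pool N469, against 16.2% of genes tested. mt-Tc was at 382 (lowest), 2396 (median) and 6384 (highest) CPM in 9 heart libraries, against 19.8 to 115 in bone marrow, 33.7 to 483 in brain, 38.98 to 675 in intestine and 81.1 to 837 in muscle. Its ranges overlapped those of all but bone marrow and the change was 4.28 ± 0.27 (edgeR adjusted p = 5.05e-19). mt-Ta ran from 678 to 3569 CPM in heart, above every library of the other 4 tissues, whose highest was 524, and changed by 4.08 ± 0.18 (p = 4.14e-25). mt-Te ran from 1575 to 6878 CPM and changed by 3.60 ± 0.25. mt-Ty changed by 3.34 ± 0.57, mt-Tp by 2.83 ± 0.50, mt-Tn by 2.42 ± 0.48, mt-Tq by 2.38 ± 0.36 and mt-Ts1 by 2.29 ± 0.28. No member was lower, against 24.9%. The median was 3.09 over the members, 3.70 over the heavy-strand tRNAs, all 14 of which were called higher, and -0.45 over all genes.

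In the male animals of pool N541 all 8 members were called higher in heart as well, against 20.1% of genes. mt-Ty was at 10141, 6241, 7657 and 10948 CPM in hearts 11 to 14, above every library of the other 9 tissues, of which the highest was 3378, and its change was 5.29 ± 0.41 (edgeR adjusted p = 1.55e-13). mt-Tc was at 1230.4, 554, 949.6 and 579 CPM, also above every other library of the pool, and changed by 4.78 ± 0.30 (p = 3.93e-16). The change was 3.76 ± 0.29 for mt-Te, 3.75 ± 0.26 for mt-Ta, 3.47 ± 0.32 for mt-Tn, 2.77 ± 0.38 for mt-Tq, 2.23 ± 0.31 for mt-Ts1 and, without pancreas, 3.57 ± 0.41 for mt-Tp. None was lower, against 6.22%. The median was 3.75 over the members, 4.42 over the heavy-strand tRNAs and 0.44 over all genes. Under all alternatives that were run, the count in heart stayed at 8 of 8 in both pools. That count includes mt-Tp of pool N541, which has no usable error with pancreas in the fit and was called without it too. The heart effect was tested between pools by an edgeR interaction, which called 0 of 8 members and 0 of 1222 genes (percent called 0), with 0 members at an unadjusted p below 0.05.

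**Figure D3:**
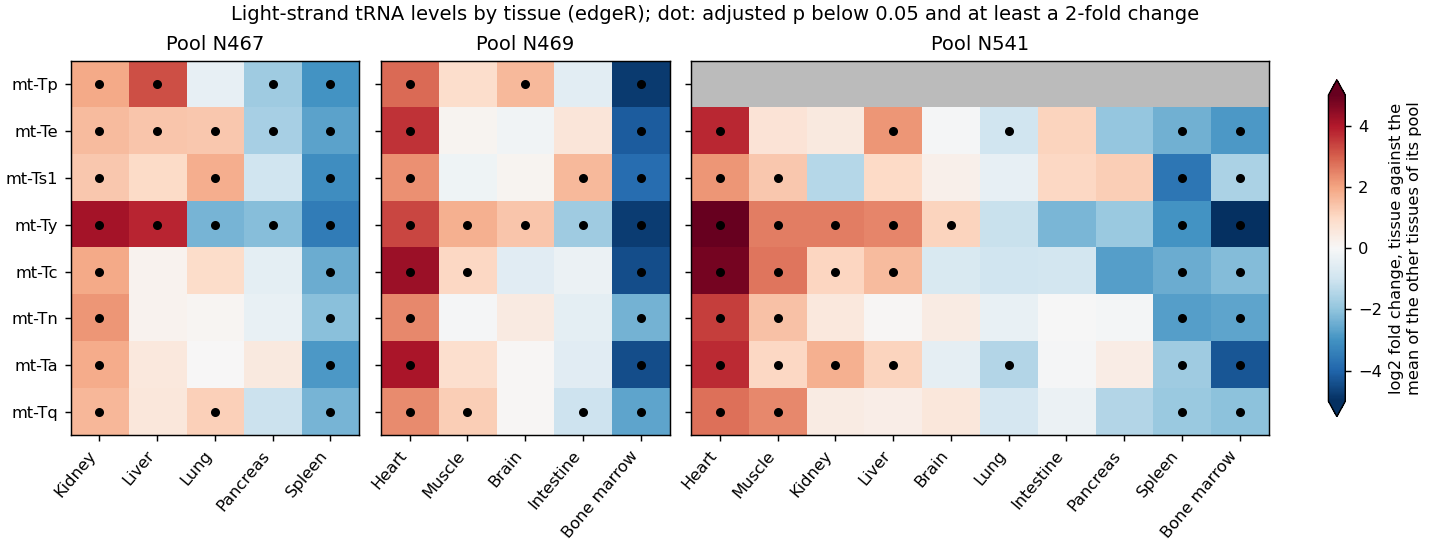
Log2 fold change of each member (rows) in each tissue against the mean of the other tissues of its pool (columns), from edgeR, with the colour scale ending at 5 in both directions and a dot on each called gene. The grey cells are mt-Tp in pool N541, which has no usable estimate. Every other cell of heart is red with a dot, and every other cell of spleen and bone marrow is blue with a dot.

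Bone marrow and spleen, the 2 blood-forming and immune organs, were at the other end. In bone marrow of pool N469 all 8 members were called lower, against 30.6% of genes. mt-Ta was at 16.5 (lowest), 39.3 (median) and 58.7 (highest) CPM and changed by -4.43 ± 0.30 (edgeR adjusted p = 4.26e-18). mt-Tn and mt-Tq changed least, with -2.34 ± 0.66 and -2.66 ± 0.51, and both took a larger share of the class there (above). The median was -4.30 over the members, -4.18 over the heavy-strand tRNAs and -0.35 over all genes, and 14 of 14 heavy-strand tRNAs were lower. No member was higher in bone marrow, against 23.8% in pool N469 and 34.0% in N541, or in spleen, against 24.1% and 20.3%. In pool N541, 7 members were lower in bone marrow against 14.1% of genes, with mt-Ty at 14.2, 14.3 and 4.76 CPM and a change of -5.77 ± 0.94. Without animal 12, which gave no bone marrow library but only libraries of the other tissues, 4 were lower. Without the pancreas libraries all 8 were lower in both bone marrow and spleen of pool N541. In spleen of pool N467 all 8 were lower against 20.3%, from -2.08 ± 0.37 for mt-Tn to -3.51 ± 0.80 for mt-Ty. The median was -2.78 over the members, -1.98 over the heavy-strand tRNAs and 0.05 over all genes, and 12 of 14 heavy-strand tRNAs were lower. In spleen of pool N541, 7 were lower against 7.94%, and 4 without animal 12. mt-Ts1 had the largest change there, -3.62 ± 0.51.

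Kidney and liver had mt-Ty as the member with the largest change in both pools. In kidney of pool N467 all 8 members were called higher, against 24.6% of genes, but with unscaled library totals only 1 was, and mt-Ts1 then turned to -0.0500. mt-Ty was at 530.2 (lowest), 2643 (median) and 19879.8 (highest) CPM and changed by 4.18 ± 0.54 (edgeR adjusted p = 6.25e-09), and the other 7 changed by 1.34 (mt-Ts1) to 2.21 (mt-Tn). The median was 1.86 over the members, 2.41 over the heavy-strand tRNAs and 0.15 over all genes. In kidney of pool N541, mt-Ty (2.57 ± 0.44), mt-Ta (1.79 ± 0.30) and mt-Tc (1.06 ± 0.39) were higher, against 15.9%. With unscaled totals mt-Tc there was -0.0100 and 1 member was called. In liver of pool N467 mt-Ty (3.80 ± 0.55), mt-Tp (3.24 ± 0.48) and mt-Te (1.39 ± 0.28) were higher, against 17.1%. Liver mt-Ty ran at 8.95 (lowest), 2012 (median) and 46405 (highest) CPM. Liver mt-Tp ran at 0 (lowest), 39.5 (median) and 2970 (highest) CPM. Livers 8, 9 and 10 held 1349, 1963 and 2970 CPM of mt-Tp, and no other liver library of the pool was above 148. The liver median of mt-Tp was below those of kidney (96.5), pancreas (57.7) and lung (54.3) and above that of spleen (23.5). In liver of pool N541, mt-Ty (2.42 ± 0.44), mt-Te (2.23 ± 0.33), mt-Tc (1.59 ± 0.37) and mt-Ta (1.11 ± 0.32) were higher, against 16.4%. mt-Ty stood at 1941, 808, 894 and 1828 CPM in livers 11 to 14. No member was lower in kidney, against 11.0% in pool N467 and 14.6% in N541, or in liver, against 17.7% and 9.23%.

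Muscle had some members called higher in pool N469 and most in pool N541, but the other tissues it was set against were not the same in the 2 pools. With the same tissues in both, the edgeR interaction called 1 member in muscle, mt-Tc (adjusted p = 0.0483), with 11.9% of genes called. In pool N469 mt-Ty (1.79 ± 0.59), mt-Tq (1.24 ± 0.37) and mt-Tc (1.04 ± 0.29) were higher, against 18.1% of genes, and none was with unscaled totals or with indices 1 to 24 alone (4 with indices 25 to 48). In pool N541, 7 of 8 were higher, against 29.5%, and 4 with unscaled totals. mt-Tc changed by 2.67 ± 0.33 there and, without pancreas, mt-Tp by 3.12 ± 0.42. mt-Te, at 0.70 ± 0.36, was the member not called. Of the heavy-strand tRNAs 13 of 14 were higher. No member was lower in muscle, against 21.5% in pool N469 and 8.15% in N541.

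In brain mt-Tp (1.60 ± 0.51) and mt-Ty (1.39 ± 0.60) were higher in pool N469, against 35.8% of genes, with 1 called when the animal was a block and 0 with indices 1 to 24 alone or with no filter on low counts. In pool N541 mt-Ty was higher (1.13 ± 0.48), against 35.1%. The count depended on the scaling, with 6 members higher with unscaled library totals and 2 with DESeq2 size factors. Blocking on the animal ended the mt-Ty call, as did leaving out the pancreas libraries, the library labelled Pancreas 11 alone or animal 13, and leaving out animal 14 gave a change of -0.110. No member was lower in brain, against 31.5% in pool N469 and 22.2% in N541. Intestine of pool N469 had mt-Ts1 higher (1.62 ± 0.28), against 30.5%, and mt-Ty (-1.78 ± 0.73) and mt-Tq (-1.04 ± 0.43) lower, against 25.3%. With the animal as a block or the index range as a term 0 were lower. mt-Ts1 was at 13.2 (lowest), 30.4 (median) and 285 (highest) CPM in intestine, where Intestine 9 (285) and Intestine 2 (105) were the highest libraries. It ran from 25.5 to 261 in heart and from 15.2 to 106 in brain. The heart and brain medians, 75.2 and 44.7, were above that of intestine, and those of muscle (18.45) and bone marrow (7.84) below it. In pool N541 edgeR called 0 members in the 2 intestine libraries (background 17.1% higher and 8.69% lower), with 1 higher and 1 lower at an unadjusted p below 0.05, and DESeq2 called 0 higher and 2 lower.

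Lung and pancreas of pool N467 gave calls that moved with the adapter index. In lung mt-Ts1 (1.83 ± 0.37), mt-Te (1.36 ± 0.28) and mt-Tq (1.17 ± 0.41) were higher, against 23.5% of genes, and mt-Ty (-2.33 ± 0.77) was lower, against 16.3%. With indices 1 to 24 alone none was higher and 4 were lower, with mt-Ts1 at -0.700 and mt-Tq at -0.640. Lung 5 and Lung 7 stood apart, with mt-Tq at 5831 and 5901 CPM, mt-Ts1 at 159 and 204 and mt-Te at 3360 and 1872. The highest of the other lung libraries of the pool had mt-Tq at 1011, mt-Ts1 at 19.0 (both Lung 4) and mt-Te at 545 (Lung 6). Lung 6, Lung 8 and Lung 9, also with indices 25 to 48, had mt-Tq at 319, 258 and 240 CPM. With the animal as a block, with DESeq2 size factors or with DESeq2, 1 was higher. In pancreas mt-Ty (-2.14 ± 0.76), mt-Tp (-1.78 ± 0.68) and mt-Te (-1.67 ± 0.36) were lower, against 29.4%, and 1 was with the animal as a block or with DESeq2 size factors. None was higher, against 19.4%. With unscaled library totals 0 were lower and 1 was higher. With indices 1 to 24 alone mt-Ty was 0.590. In lung of pool N541, mt-Ta (-1.48 ± 0.37) and mt-Te (-1.01 ± 0.41) were lower, against 5.47% (5 members with DESeq2 size factors), and the 1 member called higher, mt-Tp (against 30.5%), rested on the pancreas libraries and was 0.72 ± 0.49 and not called without them. In pancreas of pool N541 edgeR and DESeq2 called 0 members (background 9.23% higher and 9.33% lower by edgeR), with 4 lower at an unadjusted p below 0.05 by edgeR (mt-Tq, mt-Tc, mt-Ty and mt-Te), leaving aside mt-Tp, which had no count there. With no filter on low counts, and with the libraries labelled testis added, 1 member was lower. The 3 pancreas libraries held 33, 166 and 27 mitochondrial tRNA counts.

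The index ranges were also compared gene by gene, with tissue in the edgeR model, a comparison chosen after seeing the data. In pool N469, 4 members were higher with indices 25 to 48, against 14.4% of genes, and 0 lower, against 15.3%. mt-Ty was higher by 3.12 ± 0.38, mt-Tp by 2.81 ± 0.28, mt-Tn by 2.74 ± 0.27 and mt-Tq by 1.67 ± 0.24. mt-Ts1 (0.84 ± 0.22), mt-Ta (-0.14 ± 0.17), mt-Te (-0.21 ± 0.23) and mt-Tc (-0.38 ± 0.25) were not called. Of the heavy-strand tRNAs, mt-Tw (2.15 ± 0.31), mt-Tk (1.88 ± 0.31), mt-Ti (1.81 ± 0.22) and mt-Tf (1.34 ± 0.25) were higher and mt-Tv (-1.11 ± 0.31) lower. The shares of mt-Tn, mt-Tp and mt-Tq each lay wholly above those of the lower indices in 4 of 5 tissues. In pool N467 mt-Ty (2.15 ± 0.54), mt-Tp (1.75 ± 0.42) and mt-Tc (1.23 ± 0.32) were higher, against 16.9%, and no member was lower, against 9.38%. mt-Ty and mt-Tp were thus higher in both pools, which hold the same animals and the same split. mt-Tc was not: it rose in pool N467 and had a value below 0 in pool N469. Animal set and index range cannot be told apart in these fits. The fits also take libraries as independent, although 1 animal gave several of them. In pool N469 the median correlation of deviations between tissues of the same animal was 0.651. The SEs and calls of this comparison therefore do not measure the spread between animals.

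**Figure D4:**
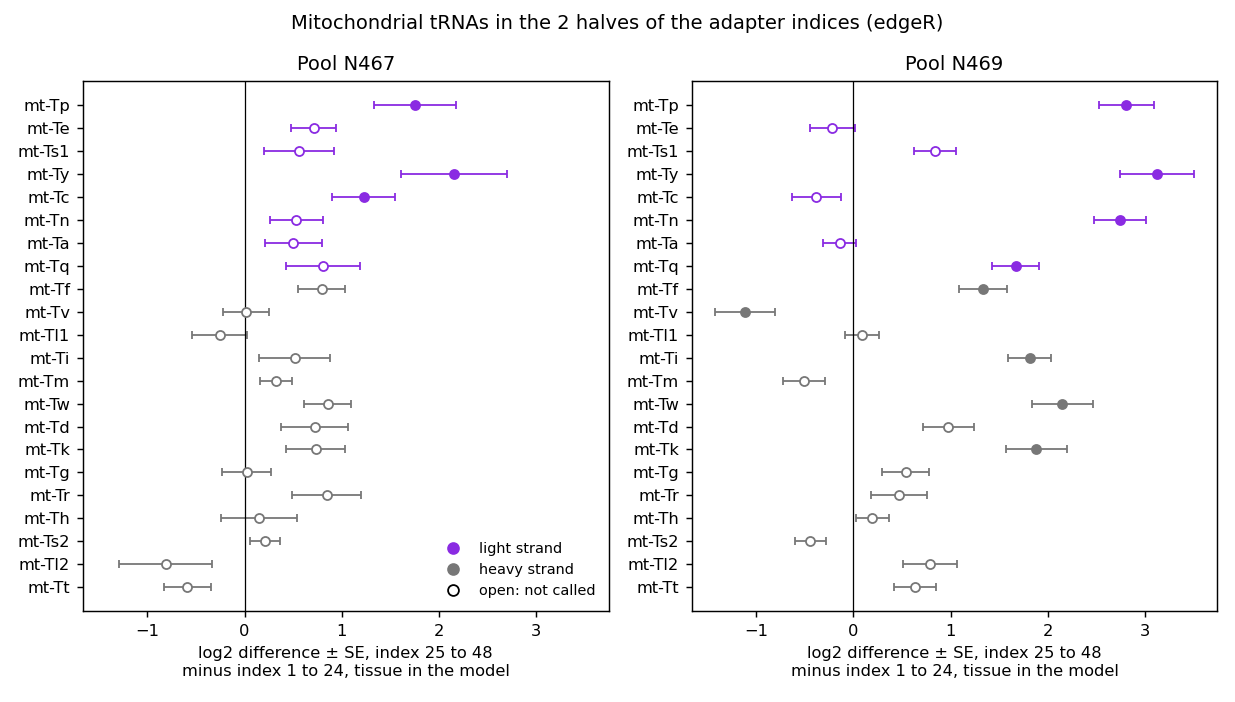
Log2 fold change of each mitochondrial tRNA between libraries with adapter indices 25 to 48 and 1 to 24 (x axis) in pools N467 and N469, with bars of 1 SE. mt-Ty and mt-Tp lie far right in both pools, and mt-Tn in pool N469.

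Differences between pool N541 and the female pools in the same tissue effect were tested for all members, 80 tests in all, of which 6 were called. Each effect here is against the other 4 tissues of the female pool. In bone marrow mt-Tc was -4.10 in the females and -1.86 in the males (difference 2.24, edgeR interaction adjusted p = 0.00373) and mt-Ts1 -3.69 in the females and -1.21 in the males (difference 2.48, edgeR interaction adjusted p = 0.00668), where 35.1% of genes were called. In intestine mt-Tc was 0.86 in the females and -2.26 in the males (difference -3.12, edgeR interaction adjusted p = 0.00699) and mt-Ts1 3.10 in the females and 0.05 in the males (difference -3.05, edgeR interaction adjusted p = 0.0218), where 31.3% were called. In muscle mt-Tc was 1.31 in the females and 2.98 in the males (difference 1.67, edgeR interaction adjusted p = 0.0483), with 11.9% called. In lung mt-Tp differed, with 12.9% called, but its value rests on the pancreas libraries with no mt-Tp count. Without pancreas the difference in lung was 2.79 (p = 0.0317) for mt-Tp, -1.68 (p = 0.0414) for mt-Ta and -1.84 (p = 0.0117) for mt-Te, with 22.1% of genes called. No member was called in kidney (9.33% of genes called), liver (0.497%), pancreas (9.24%), spleen (3.38%) or brain (2.05%). Sex, animal set and pool cannot be told apart in these differences.

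The 3 libraries labelled testis were kept out of the fits, since 2 samples share each of their titles. Their light-strand shares were 14.95, 13.7 and 15.5%, a mean of 14.7 ± 0.942% (SD, n = 3). mt-Tq took 4.67 ± 0.180% of mitochondrial tRNA counts, mt-Ty 3.56 ± 0.122% and mt-Te 2.47 ± 0.464%, so mt-Tq and not mt-Ty led the members. mt-Ts1 was lowest at 0.136 ± 0.0312%. These values describe libraries in which the testis microRNAs were at or near 0 and Mir205 was high, so they are not given as levels of testis.

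Likeness of pattern was taken as Spearman's rho over 20 means of log2 CPM, 1 for each tissue in each pool and centred on the pool's mean, as a description: the points share libraries, pools and scaling. mt-Tq and mt-Tc were most alike among the members (rho 0.967), mt-Ty was most like mt-Tq (0.940) and mt-Tp most like mt-Ty (0.920). The others were nearest a heavy-strand tRNA: mt-Ta to mt-Ts2 (0.965), mt-Te to mt-Tf (0.964), mt-Tn to mt-Tl2 (0.943) and mt-Ts1 to mt-Tg (0.814), the lowest value of the 8. Summed, the light-strand tRNAs had a rho of 0.928 with the summed heavy-strand tRNAs. Among 736 genes outside the class the microRNA genes Mir30c-2 (0.848), Mir190a (0.847) and Mir30c-1 (0.845) came nearest.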

How the data were processed

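Small RNA of bulk tissues was sequenced as single reads from TruSeq small RNA libraries selected for size on a gel, per the labels' protocols, which fixes the RNA lengths that were counted. The authors deposited raw counts per gene in 1 table. STAR 2.5.1, featureCounts and the mouse build GRCm38 (mm10) are named in the submitters' processing notes. How featureCounts treated strand and reads with several matches is not stated there. The table was checked for identical columns, of which there were 0, and its totals ran from 10255 to 34095704.

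Groups are tissue within library pool, from the labels. Levels were tested with edgeR 4.0.16 in R 4.3.3 (TMM scaling, filterByExpr with a minimum count of 10, quasi-likelihood test of a tissue against the mean of the other tissues of its pool, Benjamini-Hochberg adjusted over all genes). DESeq2 1.42.0 was an alternative. Shares were tested by permutation of libraries (100000 draws) with scipy 1.17.1. Both procedures were tested on simulated data. The members, marker lists and tests were chosen with earlier results of these data known. Genes named are the 8 members, and other genes are named where they were called beside them or were nearest in pattern. Members with no count in a whole tissue get no fold change.

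Replicate numbers in the titles name animals, so the same mouse gave several tissues. The median correlation of deviations between tissues of the same animal was 0.0498 in pool N467, 0.651 in N469 and -0.0239 in N541, against -0.00967, -0.154 and 0.0150 between different animals. The main edgeR fits and the permutations of libraries take libraries as independent, so their p-values measure the spread between libraries and not between animals. Only the animal block and the exact sign-flip test pair the tissues of 1 mouse. Alternatives were other scalings, no filter, DESeq2, the animal as a block, left-out libraries or animals, adapter index ranges and another denominator.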

Additional observations from a re-analysis of the deposited data

Results flagged for a closer look

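Groups of 4 to 10 libraries were searched for 1 library far from the rest by Dixon's test at 95%. The light-strand share and the mitochondrial tRNA share of all counts were each searched. This made 34 tests in all, of which chance flags about 1 in 20. Pancreas 9 of pool N467 had a light-strand share of 17.9%, with the other pancreas libraries of its pool between 5.47% and 11.0%. Intestine 3 of pool N469 had mitochondrial tRNA at 6.45% of all counts, with the others between 0.244% and 3.10%.

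In 6 of 80 member tests the effect of a tissue differed between pool N541 and the pool of the females by an edgeR interaction. The same interaction called 35.1% of all genes tested in bone marrow, 31.3% in intestine, 11.9% in muscle and 12.9% in lung. mt-Tc differed by 2.24 on the log2 scale in bone marrow, by -3.12 in intestine and by 1.67 in muscle. mt-Ts1 differed by 2.48 in bone marrow and by -3.05 in intestine. mt-Tp differed by 5.09 in lung, a value that rests on 3 pancreas libraries with no mt-Tp count. Sex, animal set and library pool cannot be told apart in these differences.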

How the results depend on the processing

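All 8 members were called higher in heart of both pools under every alternative that was run. Replicate numbers name animals, so the replicate block pairs tissues of 1 mouse, and it changed no count by over 1.5 times beyond those given here. DESeq2 size factors moved the median of all genes by -0.44 to 0.39 in pool N467, -0.15 to 0.16 in N469 and -0.5 to 1.01 in N541, and unscaled totals by -1.35 to 1.3, -0.81 to 1.17 and -0.91 to 1.25. Values below are given with the reported count after "for", and the cause of each change was not tested. The list is not of all changes. For every alternative, counts within 1.5 times of the reported count and mean shares within their SD are left out. Single calls lost inside such counts are left out too. With DESeq2's Wald test, the higher calls were 1 for 3 in lung (N467) and 0 for 1 in lung (N541), and the lower calls were 1 for 2 in intestine (N469), 2 for 0 in intestine (N541), 1 for 0 in kidney (N541) and 5 for 2 in lung (N541). With DESeq2 size factors in edgeR, the higher calls were 1 for 3 in lung (N467), 2 for 1 in brain (N541) and 0 for 1 in lung (N541), and the lower calls were 1 for 3 in pancreas (N467), 1 for 2 in intestine (N469), 1 for 0 in intestine (N541), 1 for 0 in kidney (N541) and 5 for 2 in lung (N541). With the index range as a term, the lower calls were 0 for 2 in intestine (N469). With mt-Ts2 left out of the class, the higher calls were 1 for 3 in lung (N467) and 3 for 1 in pancreas (N467), and the lower calls were 0 for 1 in liver (N467) and 0 for 1 in brain (N469), and mean light-strand shares came to 22.7% for 9.48% in pancreas (N467), 33.3% for 25.6% in heart (N541), 42.1% for 36% in liver (N541), 26.3% for 20.6% in lung (N541), 22.6% for 18.6% in spleen (N541) and 16.9% for 14.7% in the libraries labelled testis. With no filter on low counts, the higher calls were 0 for 2 in brain (N469), 2 for 1 in intestine (N469) and 0 for 1 in brain (N541), and the lower calls were 1 for 0 in brain (N469), 0 for 2 in intestine (N469), 1 for 0 in intestine (N541), 1 for 2 in lung (N541) and 1 for 0 in pancreas (N541). With adapter indices 1 to 24 alone, the higher calls were 0 for 3 in lung (N467), 0 for 2 in brain (N469), 2 for 1 in intestine (N469) and 0 for 3 in muscle (N469), and the lower calls were 4 for 1 in lung (N467), 1 for 3 in pancreas (N467), 1 for 0 in brain (N469) and 0 for 2 in intestine (N469), and the log2 change turned for mt-Tq to -0.640 in lung (N467), mt-Ts1 to -0.700 in lung (N467) and mt-Ty to 0.590 in pancreas (N467). With adapter indices 25 to 48 alone, the higher calls were 1 for 0 in pancreas (N467), and the lower calls were 0 for 1 in lung (N467) and 1 for 0 in brain (N469). With permutation inside index ranges, the higher calls were 1 for 0 in brain (N469), and the lower calls were 1 for 0 in pancreas (N467), 1 for 0 in heart (N469) and 2 for 1 in muscle (N469). With the animal as a replicate block, the higher calls were 1 for 3 in lung (N467), 1 for 2 in brain (N469) and 0 for 1 in brain (N541), and the lower calls were 1 for 3 in pancreas (N467), 0 for 2 in intestine (N469) and 1 for 2 in lung (N541). With the replicate block of the exact sign-flip test, the higher calls were 0 for 2 in liver (N467), 1 for 3 in lung (N467), 0 for 1 in pancreas (N467), 1 for 2 in bone marrow (N469), 1 for 2 in heart (N469) and 1 for 2 in intestine (N469), and the lower calls were 3 for 0 in kidney (N467), 1 for 0 in lung (N467), 1 for 0 in pancreas (N467), 1 for 0 in spleen (N467), 2 for 1 in bone marrow (N469), 2 for 1 in brain (N469), 4 for 0 in heart (N469) and 3 for 1 in muscle (N469). With unscaled library totals, the higher calls were 1 for 8 in kidney (N467), 1 for 0 in pancreas (N467), 0 for 3 in muscle (N469), 6 for 1 in brain (N541), 1 for 3 in kidney (N541), 0 for 1 in lung (N541) and 4 for 7 in muscle (N541), and the lower calls were 0 for 3 in pancreas (N467), 1 for 0 in intestine (N541) and 1 for 0 in kidney (N541), and the log2 change turned for mt-Ts1 to -0.0500 in kidney (N467) and mt-Tc to -0.0100 in kidney (N541). With the 3 libraries labelled testis added, the higher calls were 0 for 1 in brain (N541) and 0 for 1 in lung (N541), and the lower calls were 1 for 0 in brain (N541) and 1 for 0 in pancreas (N541). With libraries under 100000 counts left out, the higher calls were 0 for 1 in lung (N541), and the lower calls were 1 for 0 in intestine (N541) and 5 for 2 in lung (N541). With the library labelled Pancreas 11 left out, the higher calls were 0 for 1 in brain (N541) and 0 for 1 in lung (N541), and the lower calls were 1 for 0 in brain (N541). With the pancreas libraries left out, the higher calls were 0 for 1 in brain (N541) and 0 for 1 in lung (N541), and the lower calls were 1 for 0 in brain (N541) and 1 for 0 in intestine (N541). Leaving out each animal of pool N541 in turn gave 0 to 2 higher in brain (main 1), 0 to 1 higher in intestine (main 0), 0 each time higher in lung (main 1), 4 to 6 lower in bone marrow (main 7), 0 to 1 lower in intestine (main 0), 1 to 2 lower in lung (main 2) and 4 to 7 lower in spleen (main 7). The log2 change of mt-Ty in brain ran from -0.110 without animal 14 to 1.60 without animal 11. The pancreas contrast of pool N541 gave no value without libraries under 100000 counts. The alternatives on adapter index and on pancreas libraries were chosen after seeing the data. Depth was lowest in pancreas of pool N541, with 27 to 166 mitochondrial tRNA counts.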
